A study of Homo sapiens with 24 samples.

Results

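The 10 genes PTGES3, STMN1, RTN3, C4orf34, DAP, AKAP2, SENP3, AES, PPP6R1 and RAB7L1 had lower mRNA in SFPQ-depleted than in control cells in each of 6 liver cancer lines. They are 10 of the 21657 genes kept from a table of 23284 rows, and they were picked by their own change after knockdown, both without and with TGF-beta. Their knockdown values are therefore a description and carry no test. All 10 passed the filter on low values in both knockdown comparisons.

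The study measured polyA RNA in 24 libraries. The lines were HLE, SK-HEP1, HepG2, Huh7, Huh1 and Hep3b, and each gave 1 library in each of 4 groups: control siRNA (siCTL), control siRNA with TGF-beta (siCTL_T), SFPQ siRNA (siSFPQ) and SFPQ siRNA with TGF-beta (siSFPQ_T). TGF-beta was given at 2 ng/ml for 24 hours. All groups carry a transfected siRNA, and no second SFPQ siRNA and no rescue is given in the sources used here, so loss of SFPQ and any other effect of that siRNA cannot be told apart. The replicate is the cell line, with n = 6 per group.

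SFPQ is a nuclear RNA- and DNA-binding protein of the DBHS family. With its partner NONO and the long noncoding RNA NEAT1 it forms paraspeckles, and it is known to act in transcription, splicing and the production of long transcripts. The 10 genes belong to no single pathway. PTGES3 is a co-chaperone of HSP90 and SENP3 removes SUMO from proteins, mainly in the nucleolus. STMN1 binds tubulin and destabilises microtubules, and RTN3 shapes tubules of the endoplasmic reticulum. DAP restrains autophagy, AKAP2 anchors protein kinase A, and PPP6R1 is a regulatory subunit of protein phosphatase 6. AES is a short relative of the Groucho/TLE corepressors, now named TLE5. RAB7L1, now named RAB29, is a small GTPase that works with the kinase LRRK2, and C4orf34, now named SMIM14, is a small membrane protein.

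The stretch before the transcription start is shown for 3 of the genes, because the members fell together. PTGES3 and STMN1 are the genes with the lowest fitted changes. Among members with RefSeq windows, RAB7L1 is the only one without a GC box in any, with the windows of PALM2AKAP2 counted for AKAP2. Each stretch is the 250 bases before a RefSeq start in GRCh38.p14, 5′ to 3′ on the gene's own strand, which is the minus strand for all 3. They lie at chr12:56688285-56688534 for PTGES3, chr1:25906420-25906669 for the first of 3 windows of STMN1, and chr1:205775483-205775732 for RAB7L1. Capitals mark GC boxes (GGGCGG on either strand) and CCAAT boxes (CCAAT on either strand).
PTGES3: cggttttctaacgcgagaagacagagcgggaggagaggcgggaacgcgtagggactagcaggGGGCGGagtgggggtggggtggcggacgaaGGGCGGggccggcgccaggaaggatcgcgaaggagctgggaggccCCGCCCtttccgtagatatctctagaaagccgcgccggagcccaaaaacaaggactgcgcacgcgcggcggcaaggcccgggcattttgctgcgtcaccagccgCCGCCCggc
STMN1: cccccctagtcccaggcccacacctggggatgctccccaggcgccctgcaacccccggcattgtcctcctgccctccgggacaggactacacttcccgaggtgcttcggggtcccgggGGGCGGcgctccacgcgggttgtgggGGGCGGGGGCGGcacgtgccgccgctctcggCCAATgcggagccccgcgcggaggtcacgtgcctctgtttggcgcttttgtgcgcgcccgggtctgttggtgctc
RAB7L1: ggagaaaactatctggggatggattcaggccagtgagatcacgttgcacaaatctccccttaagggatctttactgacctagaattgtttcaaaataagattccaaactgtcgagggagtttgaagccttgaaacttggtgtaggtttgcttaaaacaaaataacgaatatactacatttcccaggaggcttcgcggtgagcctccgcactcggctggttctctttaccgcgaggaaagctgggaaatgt
The PTGES3 and STMN1 stretches shown hold several GC boxes and the RAB7L1 stretch holds none. Another STMN1 window, at chr1:25906881-25907130, also holds none, so for STMN1 this depends on the start chosen. RefSeq windows of 300 bases, from 250 before to 50 after the start, were found for 9 of the 10 genes, 14 windows in all. The windows given to AKAP2 are those of PALM2AKAP2, into which RefSeq merges AKAP2 and PALM2. Its GC boxes lie in the window at chr9:109779948-109780197 and its CCAAT box in that at chr9:109640537-109640786. Both lie before its window at chr9:110125251-110125500, and whether they serve AKAP2 or PALM2 was not tested. Some genes have more than 1 window, so the shares below are of windows and not of genes. A GC box was in 10 of these 14 windows, against 44.95% of all 35116 windows. A CCAAT box was in 3 of 14, against 34.6% of all windows, and a TATA box (TATAAA) was in 1 of 14, against 11.5%. The core of a cyclic AMP response element (TGACG) was in 6 of 14, against 24.6%. The median GC content was 69.0% in the members' windows and 58.7% over all windows. These are matches of letters only.

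The values of the 24 libraries were read as FPKM (fragments scaled to transcript length and to the library total), so their depth is not known in reads. Hepatocyte markers did not follow the line names evenly. The summed FPKM of 8 markers was 10242 to 13406 over the 4 HepG2 libraries, 3973 to 5225 in Huh7 and 662 to 1134 in Huh1. It was 25.9 to 111 in HLE, 19.0 to 23.5 in SK-HEP1 and 4.09 to 8.95 in Hep3b, where only 2 of the 8 markers reached 1 FPKM. The identity of the Hep3b libraries is thus in doubt, and the name is used as labelled. No endothelial marker reached 1 FPKM in any line. The summed FPKM of 4 biliary markers was higher after SFPQ siRNA in 6 of 6 lines, with medians of 365 in siCTL (34.3 to 1040) and 635 in siSFPQ (44.3 to 1555) without TGF-beta, and of 450 (30.1 to 1529) and 791 (39.8 to 2097) with it. The sum of 7 stellate and fibroblast markers was higher with TGF-beta in 6 of 6 lines of each siRNA, with medians of 23.1 (5.83 to 73.6) and 57.8 (11.5 to 86.5) in siCTL cells and 28.6 (6.28 to 64.2) and 73.9 (20.8 to 127) in siSFPQ cells. These sums do not show that each marker rose. In each line KRT7 or KRT19 was the largest part of the biliary sum. In Hep3b, KRT7 ran from 454 to 923 FPKM while EPCAM was at most 0.130. Among the stellate and fibroblast markers in Huh7, COL1A1 ran from 0.658 to 90.9 FPKM while DCN was at most 0.0656. The part of these marker levels in the results below was not tested. In bulk RNA, fewer cells of a kind and less RNA per cell cannot be told apart.

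SFPQ itself was lower in every SFPQ siRNA library than in the matched control. Without TGF-beta its FPKM went from 247 to 23.5 in HLE, from 185 to 24.3 in SK-HEP1 and from 167 to 40.5 in Hep3b. It went from 198 to 51.4 in Huh7, from 90.4 to 36.5 in Huh1 and from 103 to 46.6 in HepG2. The knockdown was thus deepest in HLE, which retained 9.49% of its control level, and shallowest in HepG2, which retained 45.2%. With TGF-beta the share retained ran from 10.7% in HLE to 44.8% in Huh1. No SFPQ siRNA library overlapped the control range, which had its lowest value at 84.7 FPKM with TGF-beta and 90.4 FPKM without.

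**Figure D1:**
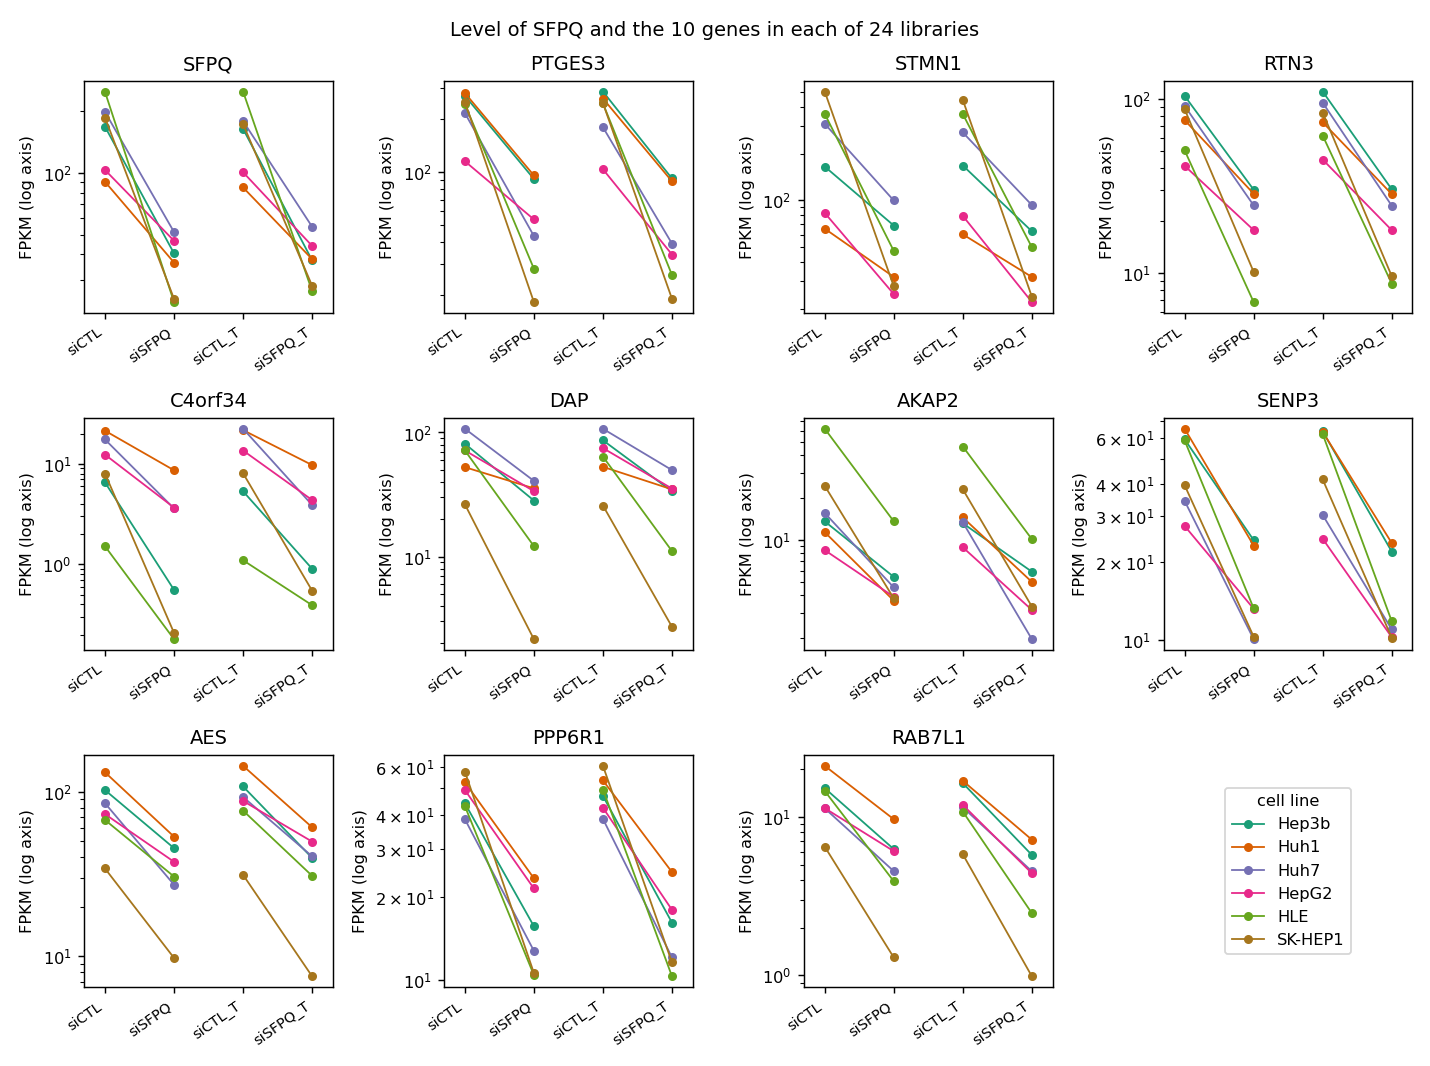
FPKM (log axis, a separate scale per gene) of SFPQ and the 10 genes in the 4 groups, with 1 point per library and a line joining siCTL to siSFPQ within each cell line. Every line joining a pair slopes down in every panel, and the 2 lines with the deepest SFPQ loss, HLE and SK-HEP1, cross several others on the way.

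Each member was lower in siSFPQ than in siCTL in 6 of 6 lines without TGF-beta and in 6 of 6 with it. Over all genes tested this held for 17.5% without and 23.4% with TGF-beta. Being lower is what the choice of members fixed, and 13.3% of the 11831 genes tested in both comparisons were lower in all 12 pairs. Over the 120 pairs of member and line the share retained ran from 2.59% to 67.5% of control, with a median of 32.9%, and 114 pairs were below 50%. The lowest share was that of C4orf34 in SK-HEP1, at only 0.208 FPKM after knockdown. The 6 members PTGES3, RTN3, C4orf34, AKAP2, SENP3 and PPP6R1 were below 50% in all 12 pairs. Among all genes 12 were, or 0.101%, and besides SFPQ and the 6 members these were ACO1, BRCC3, SDHA, TBC1D5 and TNPO3. By adjusted p under 0.05, 21.7% of 12010 genes changed without TGF-beta (804 higher and 1805 lower, or 15%) and 30.3% of 12021 with it (1018 higher and 2621 lower, or 21.8%). After median-ratio scaling of the libraries these splits were 1255 higher and 1290 lower, and 1770 higher and 1569 lower. The scaling moved the median log2 change of all genes from -0.07 to 0.02 without TGF-beta and from -0.09 to 0.02 with it.

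**Figure D2:**
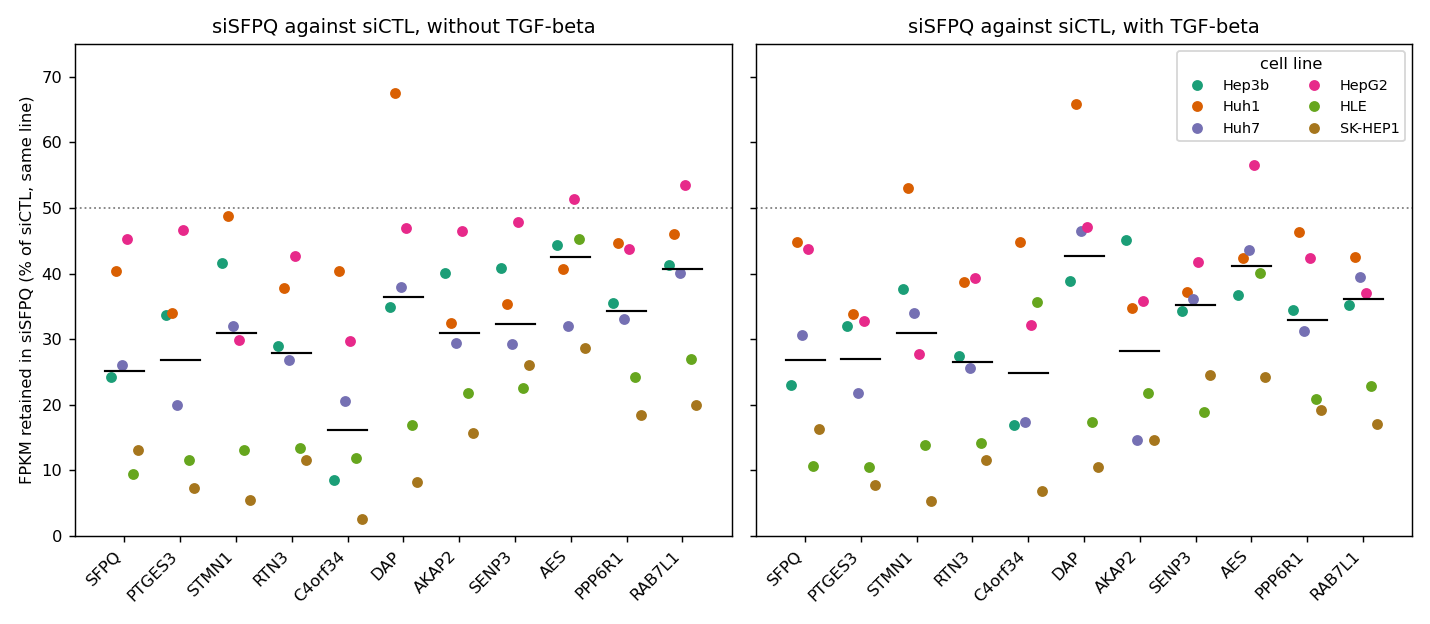
FPKM retained in siSFPQ as a percent of siCTL in the same line, for SFPQ and the 10 genes, without (left) and with (right) TGF-beta; points are cell lines, bars are medians over 6 lines and the dotted line is 50%. HLE and SK-HEP1 lie lowest for most genes, and DAP in Huh1 is the highest point on each side, at 67.5% and 65.8%.

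PTGES3 had the lowest fitted change of all genes tested in both comparisons. Its FPKM without TGF-beta went from 273 to 91.8 in Hep3b, from 283 to 96.1 in Huh1 and from 218 to 43.5 in Huh7. It went from 116 to 54.0 in HepG2, from 244 to 28.3 in HLE and from 252 to 18.3 in SK-HEP1. The control and knockdown ranges did not overlap, and HepG2 had the lowest control level and kept the largest share, 46.7%. The fitted log2 change of PTGES3 was -2.21 ± 0.30 (SE, n = 6) without TGF-beta and -2.29 ± 0.28 with it. With TGF-beta the share retained ran from 7.70% in SK-HEP1 to 33.8% in Huh1.

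The HSP90 system around PTGES3 changed by less than PTGES3, which was picked for its fall. Here and in the following paragraphs a pair of values gives the change without TGF-beta first and with it second. Of 22 HSP90 and co-chaperone genes tested, 2 were lower and 0 higher by the limma test without TGF-beta, and 5 lower and 0 higher with it. Over all genes tested, 15% were lower and 804 of 12010 higher without TGF-beta. With it 21.8% were lower and 1018 of 12021 higher. The counts of this and the later lists are set beside these shares, and no list was tested as a set. TRAP1, the mitochondrial HSP90, fell by 0.59 ± 0.10 (SE, adjusted p = 0.0064) on the log2 scale without TGF-beta and by 0.72 ± 0.09 (adjusted p = 0.0026) with it, lower in 6 of 6 lines each time. STIP1, which links HSP70 to HSP90, fell by 0.63 ± 0.15 (adjusted p = 0.0197) without and by 0.74 ± 0.14 (adjusted p = 0.0069) with TGF-beta, although the first call is lost when Huh7 is left out. HSP90AB1 itself passed with TGF-beta, at -0.25 ± 0.06, though not after median-ratio scaling, and was at -0.14 ± 0.08 without it. The other prostaglandin E synthases, PTGES and PTGES2, did not pass in either comparison, with changes from -0.0094 to 0.32.

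STMN1 had the widest spread between lines. Without TGF-beta its FPKM went from 504 to 27.9 in SK-HEP1, from 362 to 47.2 in HLE and from 312 to 99.9 in Huh7. It went from 165 to 68.8 in Hep3b, from 83.0 to 24.9 in HepG2 and from 65.7 to 32.1 in Huh1. The control and knockdown ranges overlapped, since Huh7 after knockdown stayed above HepG2 and Huh1 in control. SK-HEP1 started highest and ended next to the lowest, with 5.54% retained, against 48.8% in Huh1. STMN1 changed on the log2 scale by -2.11 ± 0.35 (SE, n = 6) without TGF-beta and -2.10 ± 0.36 with it, and the line changes had an SD of 1.19 in each. STMN2 and STMN4 stayed at or under 0.07 FPKM in all libraries, and STMN3 did not pass (0.27 without and 0.19 with TGF-beta). Of 19 tested genes of stathmins, tubulins and microtubule dynamics, 2 were lower and 1 higher without TGF-beta (15% of all genes lower). With it 8 were lower and 1 higher (21.8% of all genes lower). TUBG1, the gamma-tubulin of microtubule nucleation, fell by 0.49 ± 0.14 (adjusted p = 0.0330, lower in 5 of 6 lines) and by 0.59 ± 0.14 (adjusted p = 0.0159, 6 of 6). Its first call was lost without Huh7, HLE or SK-HEP1. TUBA1C, an alpha-tubulin, was at -0.52 ± 0.21 (adjusted p = 0.107) without TGF-beta. With TGF-beta it fell by 0.76 ± 0.20 (adjusted p = 0.0232, lower in 5 of 6). The TUBA1C call was lost when Huh7 or SK-HEP1 was left out.

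RTN3 was the steadiest of the 3 most lowered members. The siCTL FPKM ran from 41.3 in HepG2 to 104 in Hep3b (median 81.4) and its siSFPQ FPKM from 6.82 in HLE to 30.1 in Hep3b (median 21.1), with no overlap. It retained 11.6% in SK-HEP1, 13.5% in HLE, 26.8% in Huh7, 28.9% in Hep3b, 37.8% in Huh1 and 42.7% in HepG2. On the log2 scale RTN3 changed by -1.98 ± 0.22 (SE, n = 6) without and -2.01 ± 0.22 with TGF-beta. The related RTN2 and RTN4 did not pass, with changes between -0.10 and 0.06 over both comparisons, and RTN1 stayed under 0.57 FPKM. Among 11 tested genes that shape the endoplasmic reticulum, 2 were higher and 3 lower without TGF-beta (15% of all genes lower). With it 2 were higher and 4 lower (21.8% of all genes lower). REEP5, which bends its tubules, rose by 0.76 ± 0.09 (adjusted p = 0.0027) and 0.71 ± 0.10 (adjusted p = 0.0028), higher in 6 of 6 lines both times.

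C4orf34 had the lowest median control level of the 10 genes. Its siCTL FPKM ran from 1.51 in HLE to 21.4 in Huh1 (median 10.2), and its siSFPQ FPKM from 0.180 in HLE to 8.64 in Huh1 (median 2.08). The ranges overlapped, since Huh1 after knockdown stayed above 3 control lines. SK-HEP1 retained 2.59% without TGF-beta, the smallest share of any member in any line, and 6.78% with it. Its FPKM without TGF-beta went from 8.01 to 0.208, which is under the 1 FPKM of the filter. By a rough estimate from the values, 1 read on a 1 kb transcript stood for 0.0438 FPKM in that library. That share thus rests on few reads, and its precision is unknown. The fitted log2 change of C4orf34 was -1.84 ± 0.22 without and -1.61 ± 0.23 (SE, n = 6) with TGF-beta. In HLE the change of only -1.09 on the log2(FPKM + 1) scale goes with a retained share of 11.9%, because adding 1 understates the change of a gene at 1.51 FPKM.

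DAP had the widest range over lines in the share it kept, counted in percentage points, though as a ratio C4orf34 and STMN1 ranged further. The ratio of C4orf34 rests on a level of 0.208 FPKM in SK-HEP1. The control and knockdown ranges of DAP overlapped. In siCTL its FPKM ran from 26.4 in SK-HEP1 to 107 in Huh7 (median 71.7) and its siSFPQ FPKM from 2.16 in SK-HEP1 to 40.7 in Huh7 (median 31.0). SK-HEP1 kept 8.18% and HLE 16.9%, while HepG2 kept 47.0% and Huh1 67.5%. DAP changed on the log2 scale by -1.68 ± 0.28 without and -1.56 ± 0.27 (SE, n = 6) with TGF-beta. Of 17 tested genes of autophagy control and the DAP kinases, 2 were higher and 3 lower without TGF-beta (15% of all genes lower). With it 3 were higher and 5 lower (21.8% of all genes lower). ATG7, which activates ubiquitin-like autophagy proteins, fell by 0.51 ± 0.11 (adjusted p = 0.0125) and by 0.59 ± 0.10 (adjusted p = 0.0051). MAP1LC3B, whose protein coats autophagosomes, rose by 0.49 ± 0.14 (adjusted p = 0.0319) and 0.47 ± 0.11 (adjusted p = 0.0126), each time in 6 of 6 lines. ULK1, the kinase that starts autophagy, rose by 0.71 ± 0.21 (adjusted p = 0.0363, 5 of 6 lines) and 1.36 ± 0.29 (adjusted p = 0.0104, 6 of 6). For both genes the first call was lost without Huh7, HLE or SK-HEP1, and for ULK1 also without Huh1 or HepG2. The difference between the 2 comparisons, tested as the interaction, did not pass for MAP1LC3B (adjusted p = 0.931) or ULK1 (adjusted p = 0.202). DAPL1 was listed at 0 in all libraries.

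AKAP2 was highest in HLE throughout. The siCTL FPKM ran from 8.43 in HepG2 to 62.0 in HLE (median 14.5) and its siSFPQ FPKM from 3.67 in Huh1 to 13.5 in HLE (median 4.24), so HLE after knockdown reached the control level of other lines. On the log2 scale AKAP2 changed by -1.60 ± 0.18 without and -1.74 ± 0.20 (SE, n = 6) with TGF-beta. The read-through row PALM2-AKAP2 had a lower median too, at 2.17 FPKM in siCTL and 0.192 in siSFPQ, and 1.40 and 0.656 with TGF-beta. It was below the filter. How reads were split between these overlapping rows is not known, so the level of AKAP2 is uncertain. PALM2 alone changed by 0.0061 ± 0.15 without TGF-beta and did not pass, and with TGF-beta it was not tested. Its median in siCTL was only 0.709 FPKM, where adding 1 understates a change. Of 17 tested anchoring proteins and protein kinase A subunits, 1 was higher and 2 lower without TGF-beta (15% of all genes lower). With it 2 were higher and 2 lower (21.8% of all genes lower). PRKAR1B, a regulatory subunit, fell by 0.63 ± 0.12 (adjusted p = 0.0092) and by 0.64 ± 0.14 (adjusted p = 0.0107), and AKAP13, another anchor, rose by 0.50 ± 0.10 (adjusted p = 0.0102) and 0.49 ± 0.09 (adjusted p = 0.0062). PRKACB, a catalytic subunit, fell by 0.86 ± 0.19 and by 0.82 ± 0.22, the second call being lost without SK-HEP1.

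SENP3 varied little between lines. Its siCTL FPKM ran from 27.5 in HepG2 to 65.2 in Huh1 (median 49.1) and its siSFPQ FPKM from 10.0 in Huh7 to 24.2 in Hep3b (median 13.2), with no overlap. It retained between 22.5% in HLE and 47.9% in HepG2. The fitted log2 change of SENP3 was -1.55 ± 0.13 without and -1.62 ± 0.14 (SE, n = 6) with TGF-beta. Its neighbour EIF4A1, which shares a read-through row with it, did not pass (0.14 ± 0.09 and 0.11 ± 0.07), and that read-through row stayed at or below 1.32 FPKM. Of 5 other SUMO proteases tested, SENP2 fell by 0.46 ± 0.11 (adjusted p = 0.0184) and by 0.51 ± 0.10 (adjusted p = 0.0084), the first call being lost without HLE. SENP6 rose by 0.31 ± 0.08 and 0.26 ± 0.08, but the calls were lost on leaving out Hep3b or Huh7, and the second also without Huh1, HepG2 or HLE. SENP1, SENP5 and SENP7 did not pass, with changes from -0.16 to 0.21. Over the 21 tested SUMO genes, 2 were higher and 3 lower without TGF-beta (15% of all genes lower). With it 2 were higher and 5 lower (21.8% of all genes lower). SAE1, part of the SUMO-activating enzyme, fell by 0.58 ± 0.11 (adjusted p = 0.0091) and by 0.73 ± 0.10 (adjusted p = 0.0028), and SUMO2 rose by 0.48 ± 0.10 (adjusted p = 0.0133) and 0.45 ± 0.08 (adjusted p = 0.0051).

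AES was among the 2 least lowered members. In siCTL its FPKM ran from 34.2 in SK-HEP1 to 131 in Huh1 (median 79.2) and its siSFPQ FPKM from 9.78 in SK-HEP1 to 53.4 in Huh1 (median 34.1), so the ranges overlapped. HLE, with the deepest SFPQ loss, kept 45.3% of AES, close to the 44.4% kept in Hep3b. AES changed on the log2 scale by -1.30 ± 0.11 without and -1.31 ± 0.12 (SE, n = 6) with TGF-beta. Among its 4 full-length relatives, TLE4 fell by 0.46 ± 0.13 (adjusted p = 0.0327) without TGF-beta only, a call lost on leaving out Huh7, HepG2, HLE or SK-HEP1. TLE1 rose by 0.38 ± 0.10 (adjusted p = 0.0231) with TGF-beta only, a call lost without HLE or SK-HEP1. The difference between the 2 comparisons, tested as the interaction, did not pass for TLE1 (0.16 ± 0.05, adjusted p = 0.300) or TLE4 (0.18 ± 0.11, adjusted p = 0.528). TLE2 and TLE3 did not pass in either.

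PPP6R1 had the narrowest range of control levels. The siCTL FPKM ran from 38.6 in Huh7 to 57.6 in SK-HEP1 (median 46.7) and its siSFPQ FPKM from 10.4 in HLE to 23.5 in Huh1 (median 14.2), with no overlap. It retained 18.4% in SK-HEP1, 24.2% in HLE, 33.1% in Huh7, 35.6% in Hep3b, 43.7% in HepG2 and 44.6% in Huh1. On the log2 scale PPP6R1 changed by -1.59 ± 0.15 without and -1.63 ± 0.16 (SE, n = 6) with TGF-beta. The catalytic subunit PPP6C and the other regulatory subunits PPP6R2 and PPP6R3 did not pass, with changes from -0.026 to 0.15. ANKRD52, another subunit of the phosphatase, rose by 0.41 ± 0.10 (adjusted p = 0.0174) with TGF-beta. Without it ANKRD52 was at 0.35 ± 0.13 (adjusted p = 0.0734) and passed only after median-ratio scaling.

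RAB7L1 was lowest in SK-HEP1 in each group. Its siCTL FPKM ran from 6.48 in SK-HEP1 to 21.0 in Huh1 (median 13.0) and its siSFPQ FPKM from 1.296 in SK-HEP1 to 9.65 in Huh1 (median 5.31), so the ranges overlapped. It retained between 19.99% in SK-HEP1 and 53.5% in HepG2. The fitted log2 change of RAB7L1 was -1.25 ± 0.13 without and -1.41 ± 0.12 (SE, n = 6) with TGF-beta. Of 12 tested Rab GTPases and LRRK2 partners, 3 were lower and 0 higher without TGF-beta (15% of all genes lower). With it 6 were lower and 0 higher (21.8% of all genes lower). RAB12, which also binds LRRK2, fell by 0.79 ± 0.10 (adjusted p = 0.0029) and by 0.72 ± 0.11 (adjusted p = 0.0036). BAG5, a co-chaperone in the LRRK2 complex, fell by 0.71 ± 0.14 (adjusted p = 0.0094) and by 0.66 ± 0.14 (adjusted p = 0.0099). RAB7A, the late endosomal Rab, passed with TGF-beta, at -0.47 ± 0.12, though not without SK-HEP1. Without TGF-beta it was at -0.39 ± 0.15 and passed only when HepG2 was left out. The interaction for RAB7A did not pass (adjusted p = 0.558), and RAB32 did not pass.

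Across all pathway lists, 145 genes were tested without TGF-beta and 144 with it. In the fit 0 of them was lowered by as much as 1 on the log2 scale. Such a fall was rare over all genes too, at 187 of 12009 without TGF-beta and 211 of 12020 with it. The members' own changes ran from -2.29 to -1.25, but they were picked for their fall in these comparisons. Without TGF-beta 19 of the listed genes were lower and 10 higher (13.1% lower, against 15% of all genes). With TGF-beta 35 were lower and 15 higher (24.3% lower, against 21.8%). The interaction passed for 0 of the 71 named relatives, partners and neighbours tested. A call in only 1 of the 2 comparisons therefore does not show a difference between them. Partners of SFPQ went up or did not pass. NEAT1 rose by 0.82 ± 0.09 (adjusted p = 0.0023) and 0.67 ± 0.15 (adjusted p = 0.0113), higher in 6 of 6 lines both times, PSPC1 passed with TGF-beta (0.51 ± 0.13, adjusted p = 0.0173) and, without it, only when HepG2 was left out (0.35 ± 0.13 with all lines), and NONO did not pass.

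The nearest tested gene on each side of each member was also read, by order in RefSeq's GRCh38 annotation. Genes that were not tested can lie between, and distances are not given. Of 20 neighbours, 3 were lower and 2 higher without TGF-beta, and 3 lower and 1 higher with it. Over all genes tested, 21.7% were called and 15% were lower without TGF-beta, and 30.3% and 21.8% with it. The counts of neighbours called, 5 and 4 of 20, were close to or below these shares. PAFAH2, beside STMN1 and coding for a lipid hydrolase, fell by 0.95 ± 0.19 (adjusted p = 0.0103) and by 1.00 ± 0.18 (adjusted p = 0.0062). NUCKS1, beside RAB7L1 and coding for a chromatin protein, fell by 0.80 ± 0.18 (adjusted p = 0.0146) and by 0.81 ± 0.16 (adjusted p = 0.0089). RTN3 had one neighbour that fell, ATL3, by 0.59 ± 0.12 (adjusted p = 0.0111) and by 0.40 ± 0.11 (adjusted p = 0.0236). The second ATL3 call was lost without Huh7. Its other neighbour, C11orf95, rose by 0.75 ± 0.11 (adjusted p = 0.0040) and 1.02 ± 0.15 (adjusted p = 0.0033). GNA11, beside AES, rose by 0.40 ± 0.09 (adjusted p = 0.0132) without TGF-beta and was at 0.34 ± 0.11 (adjusted p = 0.0510) with it. The 15 neighbours that did not pass without TGF-beta had changes from -0.34 to 0.42. TMEM86B overlaps PPP6R1 in that annotation, and the 2 rows may share reads.

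**Figure D3:**
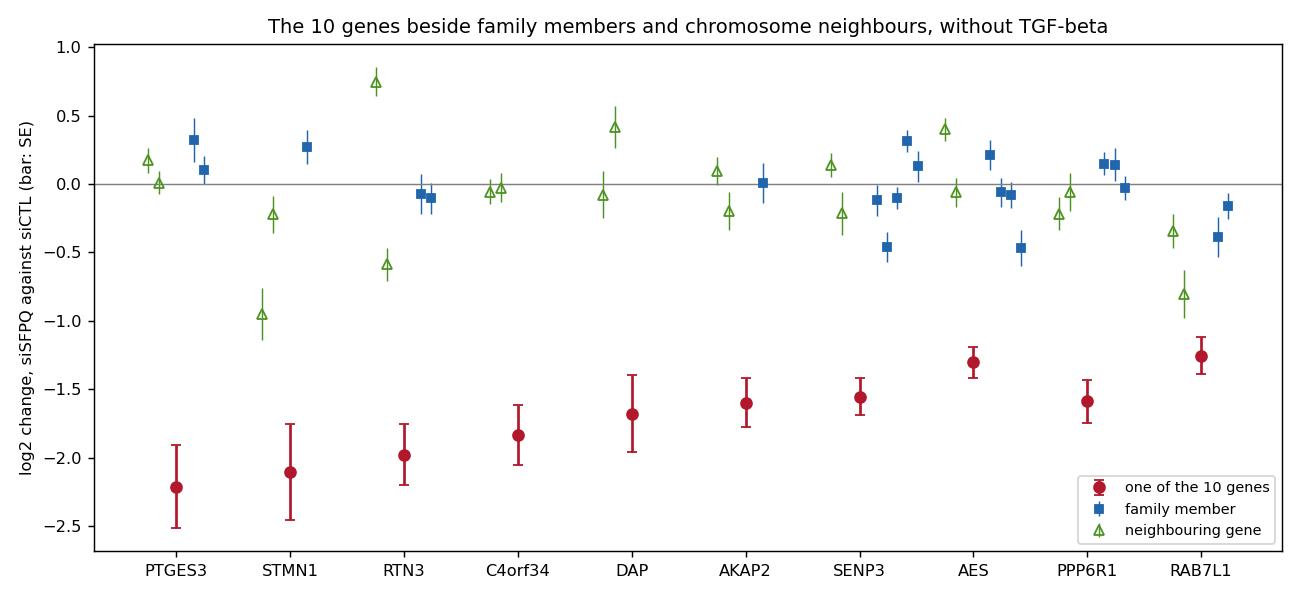
Log2 change in siSFPQ against siCTL without TGF-beta (points, with SE as bars) of each of the 10 genes, of tested genes related to it by family or complex (squares; PALM2 for AKAP2) and of its nearest tested chromosome neighbours (triangles). The 10 genes lie between -2.21 and -1.25, and the lowest of the others is PAFAH2 at -0.95.

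The members span 7.475 kb (RAB7L1) to 124 kb (AKAP2) of the genome. The AKAP2 span is that of AKAP2 under its GENCODE symbol. RefSeq's GRCh38 annotation merges it with PALM2 into PALM2AKAP2, which is longer. The members' median of 27.1 kb is set beside 31.0 kb over the 11438 tested genes with a span, which are 96.7% of those tested. Median transcript GC content was 49.6% for the members and 50.05% over all genes. The members thus include both short and long genes.

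The size of the members' loss followed the depth of the SFPQ knockdown in most of them. The median share retained over the 10 genes without TGF-beta was 13.7% in SK-HEP1, 19.4% in HLE, 30.7% in Huh7, 37.9% in Hep3b, 40.5% in Huh1 and 46.6% in HepG2. For SFPQ the order was HLE, SK-HEP1, Hep3b, Huh7, Huh1 and HepG2, so HLE trades places with SK-HEP1, and Hep3b with Huh7. With TGF-beta the medians were 13.1% in SK-HEP1, 19.9% in HLE, 32.6% in Huh7, 34.8% in Hep3b, 38.2% in HepG2 and 42.4% in Huh1. These correlations over 6 lines are descriptions, since each pair of changes comes from the same 2 libraries and both knockdown comparisons use the same lines.

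The Pearson r between a member's log2 change and that of SFPQ, without and with TGF-beta, was 0.96 and 0.91 for RAB7L1, 0.95 and 0.91 for RTN3, and 0.90 and 0.92 for PPP6R1. It was 0.89 and 0.88 for DAP, 0.88 and 0.83 for PTGES3, and 0.87 and 0.95 for SENP3. It was 0.87 and 0.55 for AKAP2 and 0.78 and 0.71 for STMN1. The lowest values without TGF-beta were those of AES (0.31 and 0.59) and C4orf34 (0.22 and -0.09), and with TGF-beta those of C4orf34 and AKAP2. The value of C4orf34 depends on the scale: on log2(FPKM + 0.1) its change in HLE without TGF-beta was -2.53 in place of -1.09, and its r was 0.65 and 0.28. On that scale AES had 0.34 and 0.59, and AKAP2 0.82 and 0.43. Spearman's rho ran from 0.09 (C4orf34) to 0.94 (RAB7L1) without TGF-beta. The slopes differed as well, from about equal loss to a shallow response. Per unit of SFPQ log2 change, without TGF-beta, STMN1 changed by 1.06, PTGES3 by 1.03 and DAP by 0.97, while RAB7L1 and SENP3 changed by 0.39 each and AES by 0.11.

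Such r values were common among lowered genes. The median r was 0.88 over the members and 0.16 over all 12009 genes without TGF-beta, but 0.84 over the 187 genes lowered by 2-fold or more. With TGF-beta the medians were 0.86, 0.14 and 0.78, the last over 211 genes. The 2 lines with the deepest knockdown also had the widest changes overall: without TGF-beta 8.86% of all genes were lowered 2-fold or more in SK-HEP1 and 7.60% in HLE, against 0.325% to 2.36% in the other lines. HLE and SK-HEP1 are also among the lines with few hepatocyte markers, so depth of knockdown and kind of line cannot be told apart. Leaving out these 2 lines, the farthest from the median SFPQ change without TGF-beta, gave a median member r of 0.74 over 4 lines. With TGF-beta the 2 farthest lines were Huh1 and HLE, and the median without them was 0.84. Without TGF-beta STMN1 then had an r of -0.01, so its relation rests on those lines, whereas RTN3 had 0.97 and C4orf34 0.91.

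**Figure D4:**
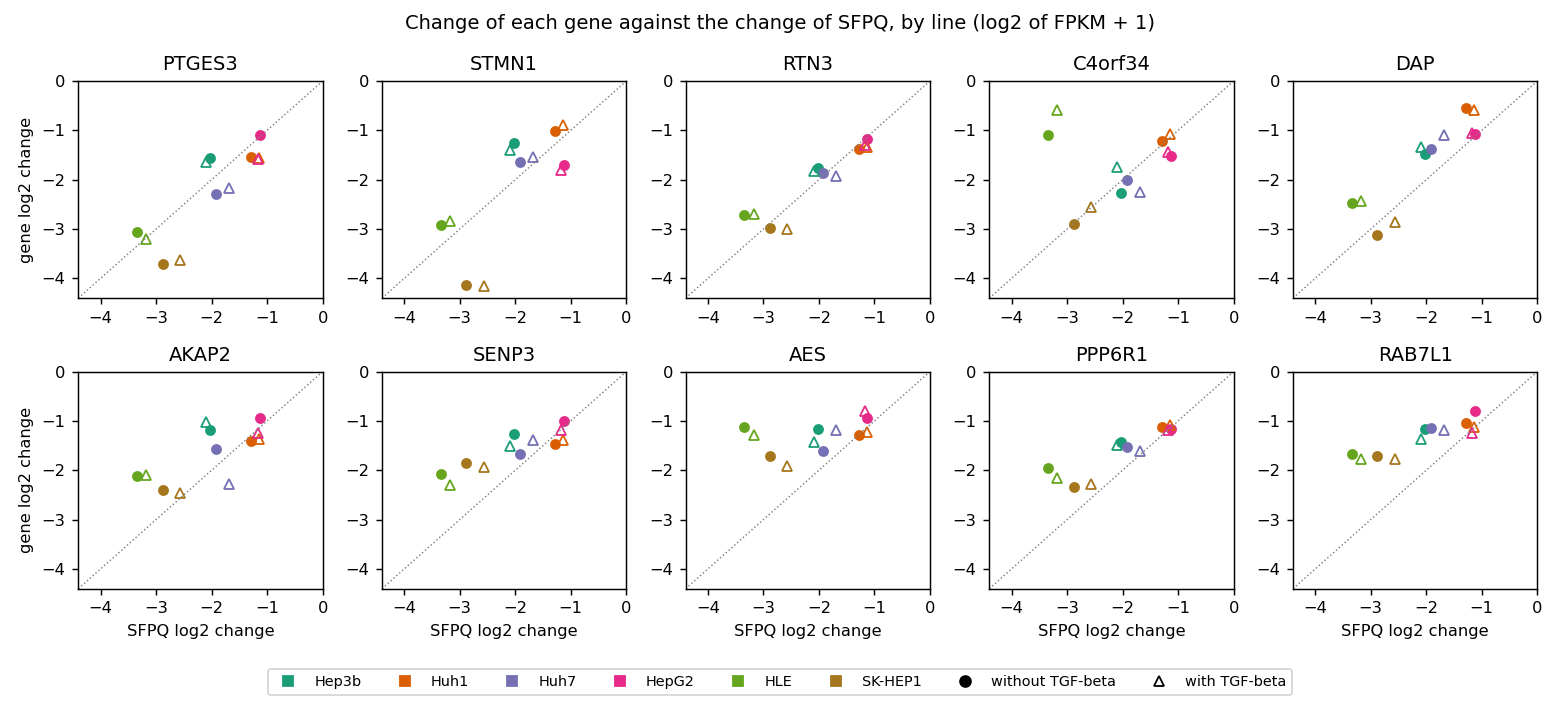
Log2 change of each gene (vertical) against the log2 change of SFPQ (horizontal) in the same line, both of FPKM + 1, with filled circles without TGF-beta, open triangles with TGF-beta and a dotted line of equal change. HLE and SK-HEP1 sit at the left with the lowest changes of most genes, C4orf34 in HLE (-1.09 without TGF-beta) being an exception.

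The line-by-line pattern was alike without and with TGF-beta. The r between the 2 sets of line changes ran from 0.69 (AES) to 1.00 (RTN3) with a median of 0.95, against a median of 0.76 over 11831 genes, and the 2 comparisons share no library. The members were picked for a fall in both comparisons, and no median over other lowered genes was taken. This agreement is therefore not shown to be particular to the members. The largest shift in any line was 0.71 on the log2 scale, for AKAP2 in Huh7. STMN1 was highest in control lines with high SFPQ (r = 0.92 over 6 lines without TGF-beta) and AKAP2 likewise (r = 0.81), whereas C4orf34 had an r of -0.70. The genes whose line-centred log2 level over the 24 libraries was most like the mean of the members were ZDHHC5, TNPO3, RPRD1A, TBC1D5 and AAGAB, with r from 0.991 to 0.995 among 13483 genes, and SFPQ ranked 31st at 0.98. This likeness uses the same libraries as the choice of members.

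No member was called for TGF-beta in either kind of cell. The choice of members compared siRNAs and not TGF-beta, but it drew on the same 24 libraries, so these tests are not wholly independent of it. In siCTL cells 0 of 10 passed by limma, and 0 had an unadjusted p under 0.05, against 0.0987% of 12164 genes called and 15.7% with an unadjusted p under 0.05. The changes ran from -0.11 to 0.11, with a median of -0.01. The nearest to the threshold were STMN1, at -0.09 ± 0.04 (SE, adjusted p = 0.356, lower in 5 of 6 lines), and AES, at 0.11 ± 0.05 (adjusted p = 0.361, higher in 5 of 6).

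In siSFPQ cells 0 of 10 passed and 2 had an unadjusted p under 0.05, against 5.34% of 11883 genes called (277 higher and 357 lower, or 302 and 140 after median-ratio scaling) and 28.4% with an unadjusted p under 0.05. C4orf34 was higher with TGF-beta in 6 of 6 lines, by 0.22 ± 0.07 (SE, adjusted p = 0.0805). In Hep3b, HLE and SK-HEP1 its levels both without and with TGF-beta were under the 1 FPKM of the filter. They were 0.557 and 0.903 FPKM in Hep3b, 0.180 and 0.392 in HLE, and 0.208 and 0.547 in SK-HEP1. The precision of these line changes is unknown. RAB7L1 was lower in 6 of 6 lines, by -0.27 ± 0.08 (adjusted p = 0.0886). The interaction is the difference between the 2 knockdown changes on which the members were chosen, and asking for a fall in both partly limits it. It called 0.252% of 13493 genes and 0 of the 10 members, none with an unadjusted p under 0.05. The difference was 0.23 ± 0.11 for C4orf34 (adjusted p = 0.430, above 0 in 5 of 6 lines) and -0.16 ± 0.08 for RAB7L1 (adjusted p = 0.432, below 0 in 6 of 6). A miss of the threshold does not show that the members are unaffected by TGF-beta.

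**Figure D5:**
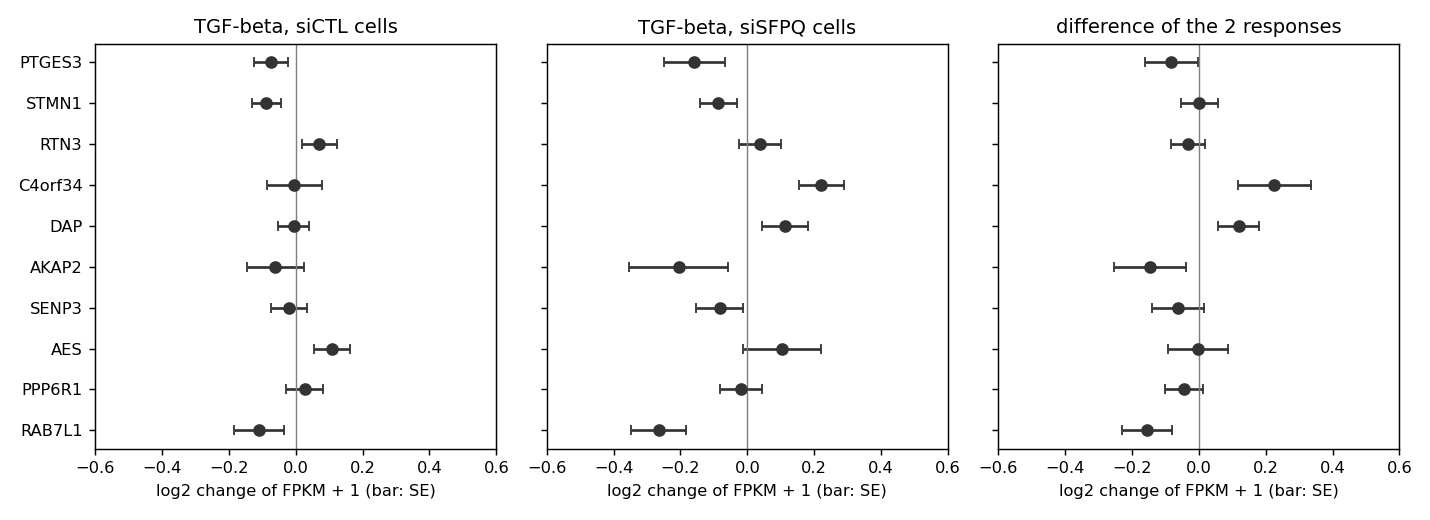
Log2 change of FPKM + 1 (points, with SE as bars, n = 6 lines) of the 10 genes with TGF-beta in siCTL cells, in siSFPQ cells, and the difference between these 2 responses. The points lie between -0.27 and 0.23, and C4orf34 and RAB7L1 are the ones farthest from 0 in siSFPQ cells.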

How the data were processed

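PolyA RNA of 24 libraries was analysed, 1 per cell line and group, and groups and lines were taken from the labels. The authors deposited 1 table of values per gene, taken here as FPKM. The table's name speaks of raw counts, but only 0.02% of its values above 0 are whole, and the unit was inferred from the values and from the use of Cufflinks. Per the submitters' processing notes, TopHat2 2.1.1, Cufflinks 2.2.1 and the build hg19 (GRCh37) were used. The values are no read counts, so the depth in reads is unknown and no count test was run. A rough estimate of relative depth from the values, with an assumed fragment length of 180 bases, ran from 0.357 to 1.74 over the 24 libraries. The table has 23284 rows. Rows of short RNAs (1627) were dropped, and values under 1e-06 were set to 0. Rows for genes that overlap can share reads, and strandedness is not given in the sources used here.

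Changes were fitted with limma 3.58.1 (R 4.3.3) on log2(FPKM + 1), which understates changes of low genes, with the line as a block and a trended, robust spread. Genes needed 1 FPKM in 6 libraries of the fit, and p-values were Benjamini-Hochberg adjusted over all genes tested, with a threshold of 0.05. Each fit has 5 residual degrees of freedom. The pairing is by cell line: libraries of a line had correlated deviations from their group means (r 0.874 to 0.978), and those of different lines had r from -0.514 to 0.410. The fit was tested on simulated data. The labels do not say whether groups of a line came from separate cultures.

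The members and gene lists were chosen with earlier results of these data known. Named genes are the members, SFPQ and its partners, the members' closest relatives, their nearest tested neighbours, up to 4 called genes of each pathway list and the 5 genes most like the members. Promoter windows are from RefSeq (GRCh38.p14). No coordinates of the authors' build were used. The alternatives were no block, another pseudocount, no filter, median-ratio scaling, another limma moderation and leaving out each line. Leaving out HLE and SK-HEP1 together was added after the data were seen. Figures were drawn with matplotlib 3.10.9.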

Additional observations from a re-analysis of the deposited data

Results flagged for a closer look

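Of 99 sets of 6 values tested (the log2 level of SFPQ and each member in each of 4 groups, and its change in each of 5 comparisons), 5 had 1 line far from the other 5, by Dixon's ratio of gap to range. Chance flags about 1 set in 20. PTGES3 in siCTL was 116 FPKM in HepG2, against 218 to 283 in the other lines. With TGF-beta in siSFPQ cells, PTGES3 changed by -0.65 on the log2 scale in HepG2, against -0.14 to 0.06 elsewhere. RTN3 changed by 0.31 in HLE under the same treatment, against -0.07 to 0.0079 elsewhere. AKAP2 in siSFPQ was 13.5 FPKM in HLE, against 3.67 to 5.43 elsewhere. AES in siSFPQ_T was 7.56 FPKM in SK-HEP1, against 30.9 to 60.9 elsewhere.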

How the results depend on the processing

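The members' knockdown changes kept their direction under all alternatives: over 240 values they ran from -2.64 to -1.02, and 1 moved by more than its spread between lines. No member passed for TGF-beta or the interaction under any alternative run. Without the replicate block, which drops the pairing by line, 0 genes passed in any of the 5 comparisons by limma, and the counts with an unadjusted p under 0.05 were 633, 734, 11, 47 and 6. The order of counts here is knockdown without TGF-beta, knockdown with it, TGF-beta in siCTL, TGF-beta in siSFPQ and the interaction. Without the filter on low values the counts of calls were 1152, 2422, 0, 15 and 4. Plain limma moderation gave 1 call for TGF-beta in siCTL and 15 for the interaction, and a pseudocount of 0.1 gave 13 for the interaction. Without HLE and SK-HEP1 the counts were 870, 2096, 0, 1 and 7, and the median member r with SFPQ was 0.740 without TGF-beta and 0.703 with it. Leaving out each line in turn gave 1383 to 2205, 2380 to 2989, 0 to 25, 34 to 421 and 8 to 29 calls. The lowest counts came without HLE, without SK-HEP1, without Huh1, HepG2 or HLE, without Huh1 and without Huh1, in that order, and the first count was also over 1.5 times lower without Huh7 (1660) or SK-HEP1 (1396). The cause was not tested, beyond the fewer samples or the larger number of genes tested that some alternatives entail. Of 66 calls of named relatives and neighbours in the knockdown comparisons, all 66 were lost without the block, 17 without the filter, 29 without HLE and SK-HEP1 and 8 after median-ratio scaling, and 44 were kept when any 1 line was left out. Another 15 calls were gained. Without TGF-beta these were PALM, PSPC1, PTGES, RAB7A and TUBA1C without HepG2, TUBA1B without Hep3b, and ANKRD52 after scaling. With TGF-beta they were EIF4A1, GNA11 and SENP7 after scaling, GNA11 without Huh7, TLE4 without Huh1, SLC41A1 with plain moderation, and TXN without SK-HEP1 and without HLE and SK-HEP1. Relatives and neighbours that did not pass changed sign in places. Under median-ratio scaling these were PPP6R3 (0.076), RTN2 (0.020), TLE3 (0.0090), TMEM86B (0.024), TRIO (0.023), UBE2K (0.044) and UGDH (0.074) without TGF-beta, and ATP5B (0.064), NONO (0.12), PTGES2 (0.12), PTPN3 (0.054), RAB32 (0.12) and UBE2K (0.029) with it. Without HLE and SK-HEP1 they were ATP5B (-0.091), NONO (-0.048), PPP6R2 (-0.060), PPP6R3 (0.041), PTGES2 (-0.018), PTPN3 (0.015), SENP1 (0.017), TMEM86B (0.065), TRIO (0.18), TXN (-0.0080) and UGDH (0.024) without TGF-beta, and NACA (-0.044), PPP6R2 (-0.085), PTPN3 (0.17), RAB32 (0.068) and UGDH (-0.12) with it. When each line was left out in turn the ranges crossed 0 for ATP5B (-0.036 to 0.056), NONO (-0.017 to 0.076), PALM2 (-0.023 to 0.013), PPP6R3 (-0.056 to 0.043), RTN2 (-0.17 to 0.040), TLE2 (-0.13 to 0.0077), TMEM86B (-0.20 to 0.0078), TRIO (-0.18 to 0.12), UBE2K (-0.10 to 0.0035) and UGDH (-0.098 to 0.038) without TGF-beta, and for NONO (-0.042 to 0.029), PPP6R3 (-0.025 to 0.065), PTGES2 (-0.049 to 0.062), PTPN3 (-0.18 to 0.061), RAB32 (-0.099 to 0.031), RTN2 (-0.096 to 0.18), RTN4 (-0.022 to 0.11) and TRIO (-0.049 to 0.16) with it. FPKM values give no counts, so the precision of low genes such as C4orf34 in HLE and SK-HEP1 is unknown.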
